A study of Mus musculus with 4 samples.

Results

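Ccnd1, Fgf15, Fgf4 and Fgf3 lie side by side near the distal end of mouse chromosome 7, and their DNA copy number was examined in 4 liver tumours. The 4 genes were taken by the gene names on the array, which gave 5 probes of the 159076 autosomal probes: 1 for Ccnd1, 2 for Fgf15, 1 for Fgf3 and 1 for Fgf4. All probes within 1 Mb of these 5 were added as the local level, which made a window of 88 probes, with 9287 other probes on chromosome 7. The window runs over chr7:151049478-152507602 (mouse build mm9) and ends at the last probe of the chromosome. The question put to the data was whether this locus stood apart from the rest of chromosome 7 in any tumour.

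The assay was array comparative genomic hybridization, in which the dye ratio at each probe reports how much of that sequence a tumour holds relative to a reference. Each tumour came from a separate Trp53-/- mouse, untreated, on a C57BL/6J background with loss of p53 in the liver per the series title. Tumour DNA carried Cy5 and the reference Cy3 on every array, with no dye swap, and values are given as log2 of tumour over reference, centred on the autosomal median. The reference is labelled as spleen DNA of the same genotype, pooled from 3 sex-matched littermates, although the labelling text names liver as the reference. Both channels of all arrays are labelled male, and ages are not given in the sources used here. The tumours form 1 group, and their numbers, 1 to 4, are only names. The share of tumour cells in each piece is not given in the sources used here, DNA carries no expression markers that could check the tissue, and in a bulk sample a change in a fraction of the cells and a smaller change in all of them cannot be told apart. In DNA with no other cells, 3 copies against 2 would give a log2 ratio of 0.585.

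Cyclin D1, the product of Ccnd1, binds the kinases Cdk4 and Cdk6, which phosphorylate the retinoblastoma protein and let a cell enter S phase. Fgf15 is the mouse counterpart of human FGF19, a hormone released by the ileum after feeding that acts on the hepatocyte receptor Fgfr4 and its co-receptor beta-Klotho and lowers bile acid synthesis through Cyp7a1. Fgf3 and Fgf4 encode growth factors used mainly in the embryo. The matching stretch of the human genome is known to be amplified in a part of liver cancers, with CCND1 and FGF19 amplified together.

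The 2 Fgf15 probes are shown because they are the only member gene probes that repeat 1 gene, and the highest and lowest mean ratios of the window are shown beside them because both came from probes without a gene name. Bases G and C are in capitals, since probe composition and brightness varied along the window, and the sequences are those of the deposited array files.

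Fgf15 at chr7:152082668-152082715: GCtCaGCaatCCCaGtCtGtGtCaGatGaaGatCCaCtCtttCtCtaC

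Fgf15 at chr7:152086177-152086236: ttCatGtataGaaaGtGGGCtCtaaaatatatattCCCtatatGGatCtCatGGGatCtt

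No gene name, highest mean, at chr7:151354149-151354208: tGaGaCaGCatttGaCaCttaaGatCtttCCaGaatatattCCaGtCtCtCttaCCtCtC

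No gene name, lowest mean, at chr7:151229043-151229102: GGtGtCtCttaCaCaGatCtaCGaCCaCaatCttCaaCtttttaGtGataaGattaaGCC

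The first Fgf15 probe holds 47.9% G and C over 48 bases and the second 33.3% over 60 bases. Both unnamed probes hold 38.3% over 60 bases, yet their ratios lay at opposite ends of the window. They differed in brightness: the highest lay at the 93rd percentile of intensity among autosomal probes and the lowest at the 23rd. The probe with the highest mean read -0.030, 1.33, 0.13 and 0.58 in tumours 1 to 4, and the probe with the lowest mean read 0.078, -0.97, -0.39 and -0.41. Both were near 0 in tumour 1 and farthest from 0 in tumour 2.

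The arrays carried 174317 non-control spots each and lay on 2 slides. Tumours 1 and 2 shared slide 1, and slide 2 held the other pair. At least 98.9% of the spots were well above background in either channel, and on every array all 88 probes of the window were well above background and 0 were flagged. The spread between neighbouring probes was an SD of 0.12, 0.37, 0.15 and 0.15 on the arrays of tumours 1 to 4. For tumour 2 the Agilent Feature Extraction software also rated this spread as out of range. On the arrays of tumours 1 and 4 the sex chromosomes went against the labels. Mean X ratios were -0.82, -0.054, -0.0061 and 0.84, and mean Y ratios 2.22, -0.087, -0.20 and -2.35; the reference channel stood apart on tumour 1's array and the tumour channel on tumour 4's. The main results are therefore also given without these arrays. At Trp53, on chromosome 11, 1 probe averaged -0.54 ± 0.33 and the other 0.28 ± 0.17 (SD, n = 4), and with the same genotype labelled in both channels they do not check the labels. With 4 arrays, each mean over tumours is imprecise.

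No gain or loss was called at the 4 genes in any tumour. The segment that held them averaged -0.046 over 342 probes in tumour 1 and 0.079 over 1496 probes in tumour 2. In tumour 3 it averaged 0.0045 over 5545 probes and in tumour 4 0.0085 over 6850 probes. Calls needed 5 or more probes and a segment mean of 0.2 or more, or of -0.2 or less, so these lay well inside the limits. Each change point also had to outweigh a penalty that grew with the noise variance of the array, which was largest for tumour 2. A gain or loss over few probes there could therefore go uncalled. No segment boundary fell within the window, and the segments reached 4.12, 20.1, 77.1 and 99.5 Mb back from the last probe of the chromosome. Beside these 0 of 4 genes, gains held 4.00%, 4.59%, 0.0234% and 2.18% of the 21339 autosomal genes in tumours 1 to 4, and losses held 0.117%, 0.319%, 0.00937% and 5.55%.

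The nearest called segments of chromosome 7 were far away. Chromosome 7 held 9 called segments in tumour 1, 0 in tumour 2, 3 in tumour 3 and 5 in tumour 4. The last of them ended 84.2 Mb before the members in tumours 1 and 3 and 125 Mb before them in tumour 4. A call by the running median of 25 probes in place of segments gave 1 tumour: in tumour 2 it lay between 0.012 and 0.33 over the window and reached 0.2 at 38 of the 88 probes (43.2%), against 9.06% of the other chromosome 7 probes of that array. These 38 lay from Cttn to the first AK007224 probes and again at the distal end of the window, up to Mrgprd, and no member probe was among them: in tumour 2 the running median was 0.19 at Fgf3, 0.17 at Fgf4, 0.19 and 0.17 at the Fgf15 probes and 0.13 at Ccnd1. In the other 3 tumours 0 of the 88 probes lay beyond either limit.

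The mean of the window was close to that of chromosome 7 in tumours 3 and 4 and above it in tumours 1 and 2. The 88 probes averaged -0.028, 0.15, 0.017 and 0.013 in tumours 1 to 4, and the other 9287 probes of chromosome 7 averaged -0.072, 0.019, 0.0082 and 0.0069. The difference was 0.044, 0.13, 0.0091 and 0.0056, so the window was higher in 4 of 4 tumours, but by little in tumours 3 and 4. Its mean was 0.047 ± 0.058 (SD, n = 4), a ratio of 1.03, and the spread between tumours was larger than the mean. The exact two-sided sign-flip permutation test gave p = 0.13, the smallest that 4 tumours allow, so that no test of this kind can pass 0.05 (adjusted p = 0.208 over 5 such tests). Without tumour 2 the mean difference was 0.020, and without tumours 1 and 4 it was 0.070 (exact p = 0.5, the smallest that 2 tumours allow).

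**Figure D1:**
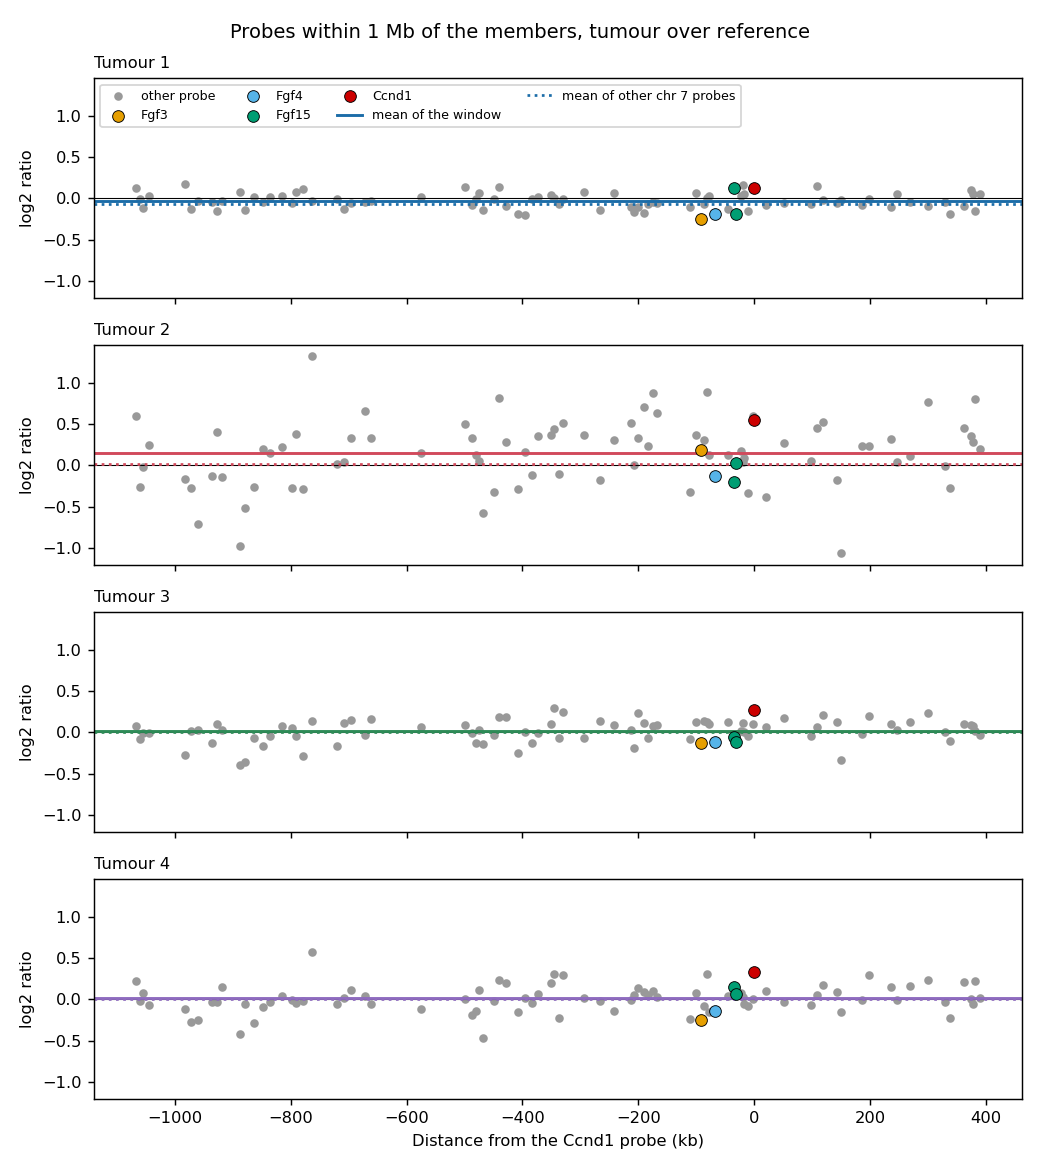
Log2 ratio of each of the 88 probes (vertical axis) by distance from the Ccnd1 probe in kb (horizontal axis), 1 panel per tumour, with member probes in colour, the window mean as a solid line and the mean of other chromosome 7 probes as a dotted line. The lines nearly coincide in tumours 3 and 4 and differ by 0.13 in tumour 2, where single probes spread from -1.06 to 1.33.

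The window was also above the average of the nearer part of chromosome 7, though above the stretch next to it in tumour 1 alone. That adjoining stretch of 88 probes averaged -0.032, 0.16, 0.043 and 0.032 in tumours 1 to 4. The 1418 probes 1 to 20 Mb from the members averaged -0.048, 0.073, 0.0080 and 0.0092. The window exceeded them by 0.020, 0.076, 0.0093 and 0.0033, which averaged 0.027 ± 0.033 (SD, n = 4; p = 0.13 by the exact sign-flip test, adjusted p = 0.208). Without tumour 2 the mean was 0.011 and without tumours 1 and 4 it was 0.042. Against 0, the level of the window averaged 0.038 ± 0.077 (SD, n = 4; exact sign-flip p = 0.5, adjusted p = 0.625), above 0 in 3 of 4 tumours. Centred on the mode of the autosomal probes it was -0.034, 0.081, -0.019 and -0.0071, a mean of 0.0053 and above 0 in 1 of 4, while differences within chromosome 7 do not depend on the centre. With the centre on the autosomal median, the level of the window was 0.00058 without tumour 2 and 0.083 without tumours 1 and 4.

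The stretch of the 4 genes averaged close to its own surroundings. The 17 probes from 50 kb before Fgf3 to 50 kb beyond Ccnd1 averaged -0.023, 0.12, 0.040 and 0.013. The other 71 probes of the window averaged -0.029, 0.15, 0.012 and 0.012. The difference was 0.0059, -0.030, 0.029 and 0.00095, which averaged 0.0014 ± 0.024 (SD, n = 4; p = 0.875 by the exact sign-flip test), and its sign turned under several settings given in the closing section. With normexp background correction it was 0.036, 0.028, 0.070 and 0.017, a mean of 0.038 and above 0 in 4 of 4 tumours (p = 0.13 by the exact sign-flip test). In tumour 2, the array where the window was highest, the stretch of the members was thus below its flanks in the chosen setting and above them with normexp.

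Along the window, tumour 2 was highest in the stretch of Tmem16a and the AK007224 probes before Fgf3. The 20 probes before Shank2 averaged -0.0069, -0.024, -0.065 and -0.033 in tumours 1 to 4. The 20 probes from Shank2 to Fadd averaged -0.028, 0.18, 0.025 and 0.0046, and the 14 over Tmem16a and the first AK007224 probes -0.059, 0.30, 0.047 and 0.016. Within the last of these, tumour 2 averaged 0.42 over the 6 AK007224 probes and 0.22 over the 8 Tmem16a probes. The 14 probes from Fgf3 to Ccnd1 averaged -0.020, 0.18, 0.041 and 0.020, and the 20 beyond Ccnd1 -0.034, 0.16, 0.055 and 0.058. Tumour 1 was below 0 in all 5 stretches, and outside tumour 2 the 5 stretches lay between -0.065 and 0.058.

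Windows of this size vary along the chromosome, and the locus lay within their range in each tumour. Chromosome 7 was tiled into 106 windows of 88 probes. Counted from the highest, the locus ranked 10 in tumour 1, 8 in tumour 2, 32 in tumour 3 and 47 in tumour 4. In tumour 2, the other windows had an SD of 0.083 and reached from -0.14 to 0.20, around the locus at 0.15. The other windows reached 0.071 in tumour 1, 0.14 in tumour 3 and 0.26 in tumour 4, all above the locus there.

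**Figure D2:**
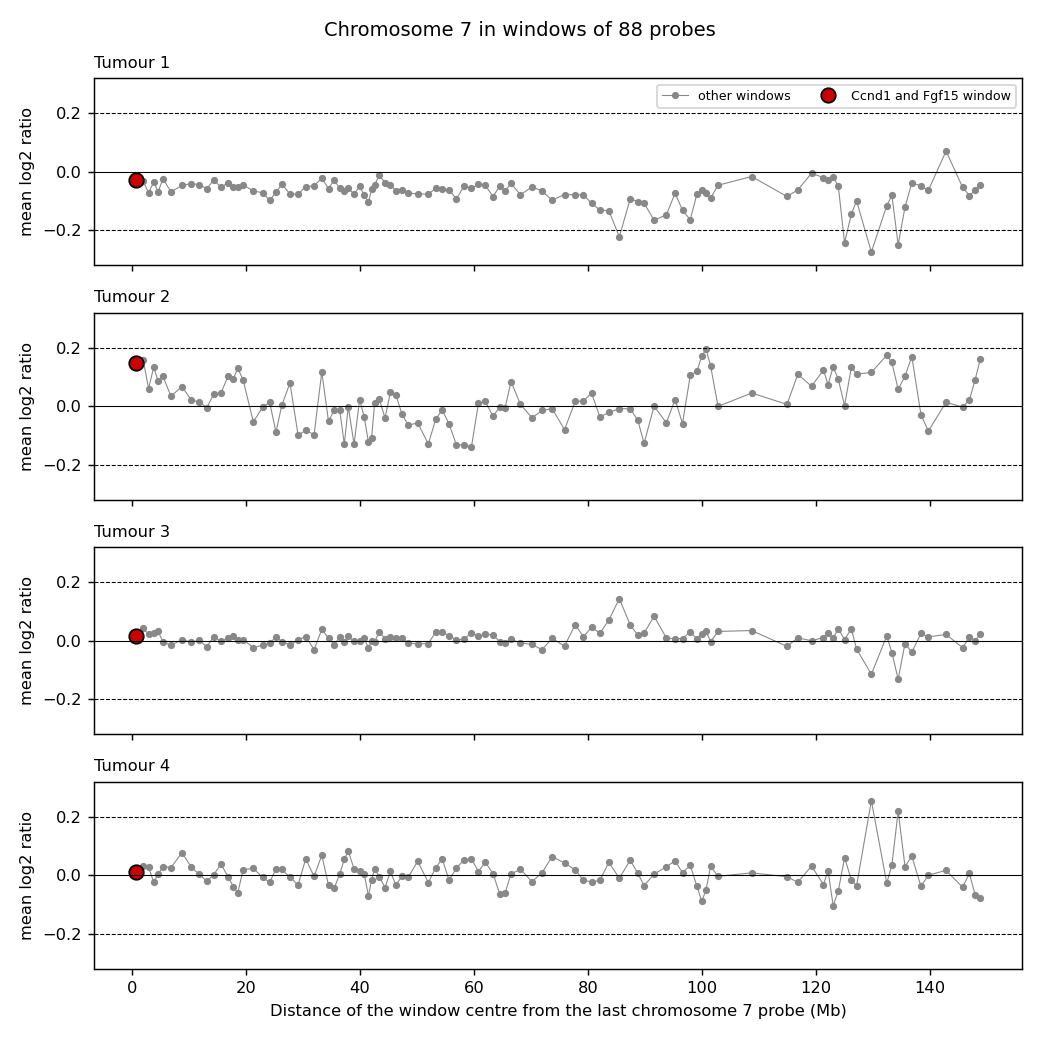
Mean log2 ratio of 106 windows of 88 probes (vertical axis) by distance of the window centre from the last probe of chromosome 7 in Mb (horizontal axis), 1 panel per tumour, with the Ccnd1 and Fgf15 window in red and dashed lines at 0.2 and -0.2. The red point lies within the range of the grey ones in every tumour and reaches 0.15 in tumour 2.

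Chromosome 15, whose mean was above 0 in every tumour, gives a scale for these levels. It averaged 0.21, 0.29, 0.14 and 0.24 over 6572 probes. The window lay below it by 0.24, 0.14, 0.12 and 0.23 in tumours 1 to 4, and the mean of the window minus chromosome 15 was -0.18 ± 0.060 (SD, n = 4; p = 0.13 by the exact sign-flip test, adjusted p = 0.208). This comparison was chosen after the chromosome 15 values were known. In all 4 tumours the order was the same, and without tumours 1 and 4 the mean was -0.13.

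**Figure D3:**
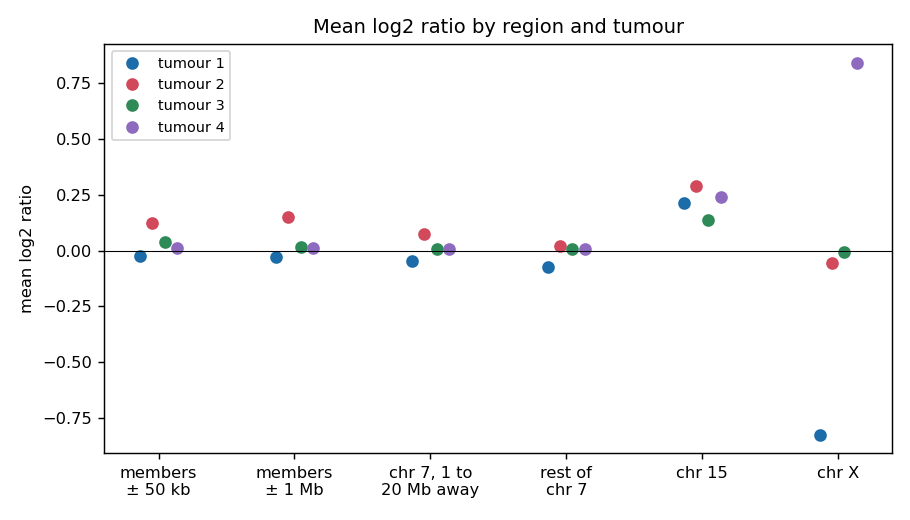
Mean log2 ratio (vertical axis) in each tumour (points) for the members with 50 kb on each side, the window of 1 Mb around them, 2 comparison parts of chromosome 7, chromosome 15 and chromosome X. On the distal side the window stops at the last probe of the chromosome, short of 1 Mb. Chromosome 15 lies from 0.14 to 0.29 and the window from -0.028 to 0.15, while X is at -0.82 in tumour 1 and 0.84 in tumour 4.

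Among the single genes, the growth factor genes come first. The Fgf3 probe, at chr7:152025035-152025094, read -0.25, 0.19, -0.12 and -0.25 in tumours 1 to 4. It was the lowest of the 88 probes in tumour 1 and above 0 in tumour 2 alone, with a mean of -0.11 ± 0.21 (SD, n = 4). Without tumours 1 and 4 that mean was 0.035. The Fgf4 probe, at chr7:152049948-152050007, read -0.18, -0.13, -0.11 and -0.13. It was below 0 in 4 of 4 tumours with a mean of -0.14 ± 0.032 (SD, n = 4), and it was -0.12 without tumours 1 and 4. Below 0 in all 4 tumours were 13 of the 88 probes, beside 14.2% of the autosomal probes.

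The 2 probes of Fgf15, the ileal hormone gene, did not move together. The first read 0.13, -0.20, -0.058 and 0.15, with a mean of 0.0058 ± 0.17. In the other probe the values were -0.19, 0.028, -0.12 and 0.070, averaging -0.051 ± 0.12 (SD, n = 4 for both). They had opposite signs in tumours 1 and 2 and the same sign in tumours 3 and 4. Their average was -0.028, -0.086, -0.088 and 0.11, a gene mean of -0.023 ± 0.094 (SD, n = 4), which limma's moderated test over 13919 genes did not separate from 0 (SE 0.048, adjusted p = 0.83). Without tumours 1 and 4 the gene mean was -0.087 (limma adjusted p = 0.709). Of those 13919 genes, 0.0% were called higher and 0.0% lower at an adjusted p under 0.05, and 2219 (15.9%) had an unadjusted p under 0.05. The unadjusted p of Fgf15 was 0.651.

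Ccnd1 was the member with the highest ratio, on 1 bright probe. This probe, at chr7:152116966-152117015 and of 50 bases with 42% G and C, read 0.13, 0.55, 0.27 and 0.33 in tumours 1 to 4. All 4 tumours were above 0, tumour 2 highest and tumour 1 lowest. Its mean was 0.32 ± 0.18 (SD, n = 4), a ratio of 1.25, and it was 0.41 without tumours 1 and 4. By mean it ranked 4 of the 88 probes, and it ranked 8, 12, 2 and 2 in the single tumours. Probes above 0 in all 4 tumours were 15 of the 88, where 15.5% of the autosomal probes were above 0 in all 4. A mean at or above that of Ccnd1 was found at 2.09% of the 159076 autosomal probes.

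**Figure D4:**
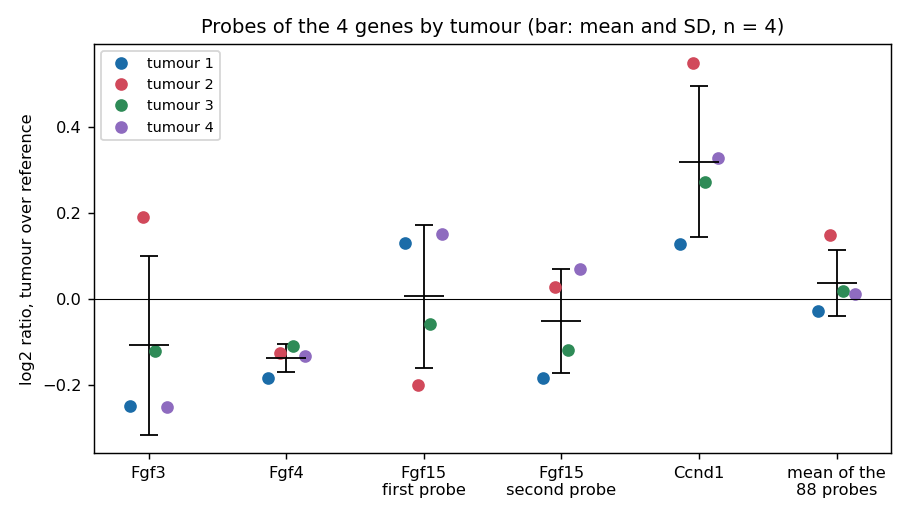
Log2 ratio (vertical axis) of the 5 member probes and of the mean of all 88 probes of the window, with 1 point per tumour and a bar for the mean and SD over 4 tumours. The Ccnd1 probe is above 0 in all 4 tumours, the Fgf4 probe below 0 in all 4, and the others fall on both sides.

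Probes beside Ccnd1 shared its level only in part. The nearest, an AK007224 probe that starts at 152114445, read 0.14, 0.60, 0.11 and 0.010, like Ccnd1 in tumours 1 and 2 and lower in tumours 3 and 4. The Oraov1 probe, which starts at 152107000, read -0.15, -0.34, -0.040 and -0.078, so that it was below 0 where Ccnd1 was above. The next probe beyond Ccnd1, which starts at 152138142, read -0.082, -0.38, 0.066 and 0.10. In this order the neighbours lay at the 93rd, 25th and 11th percentiles of intensity among autosomal probes, and Ccnd1 at the 98.7th. The part of brightness in these differences was not tested. In a limma fit that also took genes with 1 probe, the adjusted p was 0.223 for Ccnd1, 0.255 for Fgf4, 0.55 for Fgf3 and 0.846 for Fgf15, and 0.0% of its 22148 genes were called. Over all alternatives of the limma fit, the adjusted p of Fgf15 lay between 0.578 and 0.997.

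Bright probes of the window had higher ratios on the arrays of tumours 2, 3 and 4. The Ccnd1 probe lay at the 98.7th percentile of intensity, and its signal above the autosomal median was 1.63, 1.84, 1.69 and 2.0 in the tumour channel and 1.49, 1.27, 1.4 and 1.67 in the reference channel. Across the 88 probes of the window, which share an array and a dye orientation, the correlation of ratio with log2 intensity was 0.0092, 0.51, 0.33 and 0.39 in tumours 1 to 4. Over the other 9287 probes of chromosome 7 it was 0.16, 0.47, 0.15 and 0.24. The correlation of ratio with probe G and C content was 0.44, 0.14, 0.070 and 0.14 across the window. Over the other chromosome 7 probes that correlation was 0.12, 0.32, 0.061 and 0.077. With the trend of ratio on intensity removed from each array, the Ccnd1 mean was 0.14, between 0.038 and 0.23 in the 4 tumours. With the trend on G and C content removed it was 0.24, between 0.078 and 0.30. With normexp background correction it was 0.50, between 0.26 and 0.69. Removal of the intensity trend took the window's excess over chromosome 7 to 0.030, with 0.083 in tumour 2 and -0.011 in tumour 4 (exact sign-flip p = 0.375). Normexp took that excess to 0.076. As no dye was swapped, a dye preference of a probe and a copy number difference cannot be told apart on a single probe.

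**Figure D5:**
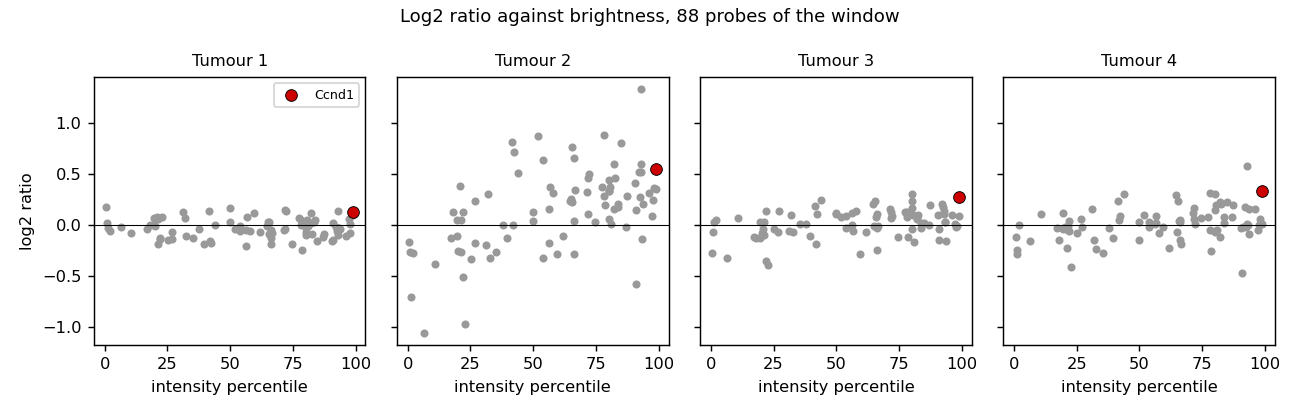
Log2 ratio (vertical axis) of the 88 probes of the window against their percentile of intensity among autosomal probes (horizontal axis), 1 panel per tumour, with the Ccnd1 probe in red. Ratios are higher at bright probes in tumours 2, 3 and 4, with correlations of 0.51, 0.33 and 0.39, and the Ccnd1 probe is at the bright end.

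Probes repeated their pattern between tumours 2, 3 and 4. Over the 88 probes the correlation was 0.64 for tumours 2 and 3, 0.67 for tumours 2 and 4 and 0.61 for tumours 3 and 4, whereas tumour 1 correlated at 0.11 to 0.17 with the others. Over the other 9287 probes of chromosome 7 the first 3 values were 0.45, 0.38 and -0.011. These are descriptions across probes, which are not independent replicates, and the arrays share probe sequences. In tumour 2 odd probes of the window averaged 0.10 and even probes 0.20, where single probes had an SD of 0.40. Whether this difference exceeds the noise between probes was not tested.

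No neighbour of the 4 genes lay in a called segment in any tumour. The window held 17 gene names including the members, of which 9 had the 2 probes that limma's test asked for. Of these 9, 0 were higher and 0 lower at an adjusted p under 0.05, as in the whole table, and 2 had an unadjusted p under 0.05, where 15.9% of all tested genes did. The median of the 17 gene means was 0.058, against -0.0040 over all autosomal genes, and their medians were -0.039, 0.20, -0.026 and -0.0056 in tumours 1 to 4. With the intensity trend removed, the 4-tumour average of these medians went from 0.033 to -0.0095, so its sign depended on that step. Without tumours 1 and 4 it was 0.088, and no listed autosomal gene, here or in the lists below, was called by limma in any setting tried.

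Tmem16a, now Ano1, a calcium-activated chloride channel, had 8 probes and read -0.054, 0.22, 0.050 and 0.014. Shank2, a synaptic scaffold gene, had 6 probes and read -0.039, 0.25, 0.049 and -0.0056. Both were highest in tumour 2 and near 0 elsewhere, with limma adjusted p of 0.606 and 0.593. Cttn, which encodes the actin-binding protein cortactin, had 4 probes and read -0.039, -0.016, -0.062 and -0.17, below 0 in 4 of 4 tumours (limma adjusted p = 0.426). Its probes disagreed: 1 read -0.15, -0.58, -0.14 and -0.47 and another 0.071, 0.051, 0.033 and 0.11, above 0 in every tumour. Fadd, a death-receptor adaptor, had 1 probe and read 0.046, 0.37, 0.099 and 0.20, above 0 in 4 of 4.

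Beyond Ccnd1, Tpcn2, an endolysosomal channel gene, read -0.11, -0.14, -0.047 and -0.13 and was below 0 in 4 of 4 tumours (mean -0.11 ± 0.040, SD, n = 4; limma adjusted p = 0.265). Mrgprf read 0.075, 0.32, 0.081 and -0.022, and Mrgprd, the last probe of the chromosome, 0.050, 0.20, -0.028 and 0.018. These receptor genes were highest in tumour 2. Oraov1, now Lto1, had a mean of -0.15 ± 0.13 (SD, n = 4).

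Genes named only by a transcript accession showed the same mixture. AK007224, with 16 probes between Tmem16a and Ccnd1 and beyond, read -0.019, 0.30, 0.078 and 0.024 (limma adjusted p = 0.463). BC038349 read 0.022, 0.55, 0.19 and 0.22 on 2 probes (limma adjusted p = 0.281). AK037603 read -0.19, -0.29, -0.25 and -0.15 on 1 probe, below 0 in every tumour, and AK146526 read -0.012, -0.32, -0.026 and -0.020. AK090059 averaged 0.19. Names with high and low values were thus interspersed. Just outside it, Dhcr7 read -0.027, 0.34, 0.079 and 0.00056 and Nadsyn1 0.031, 0.21, 0.052 and 0.043. Tumour 2 was again highest at both. Ppfia1 was not matched to a name.

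The partners of Fgf15 elsewhere in the genome were not called either. Of 18 listed genes of Fgf15 signalling and bile acid control, 15 autosomal ones were measured and 13 tested; 0 were higher, 0 lower, 0 had an unadjusted p under 0.05, and their median was 0.022. Fgfr4, the hepatocyte receptor, read 0.042, 0.47, -0.11 and -0.00070 on 1 probe. Klb, which encodes beta-Klotho, averaged -0.060, and Cyp7a1, the rate-limiting enzyme of bile acid synthesis, 0.029. Among genes with at least 2 probes, the 4 with the largest absolute means were Slc10a2, the ileal bile acid transporter, at -0.17 (limma adjusted p = 0.382), Ptpn11, a signalling phosphatase, at 0.090 (adjusted p = 0.458), Fgfr2 at 0.081 (adjusted p = 0.517) and the receptor substrate Frs2 at -0.081 (adjusted p = 0.35). Fgfr2 lies on chromosome 7 as well, in the same segment of tumours 2, 3 and 4 as the members.

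Of 20 listed genes of cyclin D and the G1 phase, 14 were measured and 11 tested; 0 were higher or lower in the limma fit, 1 had an unadjusted p under 0.05, and the median was -0.029. Rb1, the retinoblastoma gene, averaged -0.11 ± 0.088 over 18 probes (SD, n = 4; limma adjusted p = 0.327) and its relative Rbl2 -0.20 (adjusted p = 0.35). The transcription factor genes E2f2 and E2f3 averaged 0.13 each (limma adjusted p of 0.378 and 0.263). Ccnd3, another D cyclin, averaged -0.0074 over 10 probes and Cdk6 -0.012 over 13. Both were therefore close to the autosomal median.

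Of 19 other FGF ligand genes, 13 autosomal ones were measured and 9 tested; 0 were higher or lower in the limma fit, 2 had an unadjusted p under 0.05 (15.9% of all tested genes did), and the median was 0.022. Fgf2 read 0.071, 0.49, 0.059 and 0.20, a mean of 0.20 (limma adjusted p = 0.312). Fgf10 averaged -0.13 (limma adjusted p = 0.304), Fgf14 -0.065 over 74 probes and Fgf1 0.053. The single segment call among all listed genes was Fgf22, on chromosome 10, gained in tumour 2, where 4.59% of the autosomal genes were. Without tumours 1 and 4 the medians of the 3 lists, in the order given, were 0.022, -0.035 and 0.056.

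Genes elsewhere were ranked by nearness to the values of the window, which were near 0 in 3 tumours and about 0.15 in tumour 2. Some gene is always nearest, so the ranking is a description and cannot show that the pattern recurs. Of 4962 autosomal genes outside chromosome 7 with at least 5 probes, the nearest by Euclidean distance over the 4 tumours was Phc2 on chromosome 4, at -0.027, 0.15, 0.0086 and -0.0056 (distance 0.0209). Next came Glis1 (0.0259), AK139496 (0.0284), Brwd1 (0.0291) and Slit1 (0.0295), on chromosomes 4, 12, 16 and 19.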

How the data were processed

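The deposited files are Agilent Feature Extraction 12.0.1.1 output on mm9 positions, per the file headers (12.0.0 per the submitters' processing notes). Per the file headers, the authors' processed intensities had background subtracted and each dye scaled by 1 linear factor, whereas their mean and background intensities (used for normexp, offset 50) were left as scanned. The deposited log10 ratio served only to check the direction: at least 99.7% of spots matched the processed signals within 0.001. Here log2 of red over green was taken, flagged spots were left out and each array was centred on its autosomal median, with no loess. Segments came from penalised least squares with an exact change-point search (penalty factor 3). Gene means over at least 2 probes were tested against 0 with limma 3.58.1 in R 4.3.3 (lmFit with an intercept, eBayes, Benjamini-Hochberg); this leaves out the spread of the reference. Region differences were tested with exact sign-flip tests. Scripts were tested on simulated data. Python 3.11.15, numpy 2.4.6, pandas 2.3.3, scipy 1.17.1 and numba 0.67.0 were used.

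The members and lists were chosen with earlier results of these data known. The text names the 4 members, the listed neighbours with every gene name in the window, up to 4 autosomal genes with at least 2 probes and the largest mean of each pathway list, and the 5 genes most like the window. Fgfr4, Klb, Cyp7a1, Ccnd3, Cdk6 and Fgf22 were added for their role or call after their values were seen. Of 72 list names, 58 were matched to the array, in part through RefSeq synonyms (GRCm38.p6; no coordinate used). Exon and intron positions were not used here. Alternatives were background correction, centring, intensity and GC trends, flagged spots, window size, averaging, segmentation, probe filters, slide and left-out tumours.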

Additional observations from a re-analysis of the deposited data

Results flagged for a closer look

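In 3 of the 35 sets of 4 tumour values examined, 1 tumour lay farther from the other 3 than Dixon's 95% critical value allows. In each of these sets it was tumour 2, whose array had the largest spread between probes. Chance alone flags about 1 set in 20 where the 4 values are equally noisy. As the arrays were not, and all sets share them, 3 of 35 cannot be set against that rate. AK146526, a single probe in the window, read -0.32 in tumour 2 against -0.012, -0.026 and -0.020 in the others. Ptpn11 read 0.28 in tumour 2 against 0.047, 0.022 and 0.011. Rbl2 read -0.53 in tumour 2 against -0.051, -0.11 and -0.098. The part of the array in these values was not tested.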

How the results depend on the processing

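No alternative segmentation called a gain or loss in the window, and the running median called 1 tumour there (tumour 2), at probes other than those of the members. Leaving out 1 tumour at a time gave 0.020 to 0.061 for the window minus the rest of chromosome 7, 0.00058 to 0.060 for its level, 0.011 to 0.035 against the neighbouring part, -0.20 to -0.16 against chromosome 15 and -0.0077 to 0.012 for the members minus their flanks. That last difference turned below 0 with the intensity trend removed (-0.0028), the GC trend removed (-0.0019), windows of 0.5 Mb (-0.025) and 2 Mb (-0.0059), and without tumours 1 and 4 (-0.00067), and rose to 0.038 with normexp. Over the whole table, limma called 0 genes in the chosen setting, 391 with normexp (180 higher, 211 lower), 361 with slide as a random block (169 higher, 192 lower) and 1 without tumours 1 and 4; leaving out 1 tumour at a time gave 0. The median of the FGF15 and cyclin D lists, -0.0089, was -0.016 with normexp, -0.041 centred on the mode, -0.0019 with the intensity trend removed and -0.00092 with the GC trend removed. The Fgf3 probe turned to 0.012 with normexp and 0.035 without tumours 1 and 4, and the Fgf4 probe was -0.17 centred on the mode. The Ccnd1 probe was 0.14 with the intensity trend removed, 0.24 with the GC trend removed and 0.50 with normexp. The window's excess over the rest of chromosome 7 was 0.076 with normexp, and its level 0.0053 centred on the mode. The cause of these changes was not tested. Counted over all settings, 131 values stayed on their side of 0 and of the threshold, or within the spread of the tumours. Among these was the average of the neighbour gene medians, although it turned from 0.033 to -0.0095 with the intensity trend removed. Of the values outside the 131, 9 were counted as changed in sign, some by less than the spread of the tumours. Another 6 were counted as moved beyond that spread and 4 gained calls. A filter of 3 probes per gene gave no value, since Fgf15 has 2. The Fgf15 gene mean lay between -0.067 and -0.00093 without 1 tumour at a time and was -0.087 without tumours 1 and 4. No paired analysis was possible because the design has 1 group. The noise of tumour 2's array limits what can be read from single probes and from short stretches.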
